A study of Mus musculus with 6 samples.

Results

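Chemokine and chemokine receptor genes were followed in mouse fat with and without Prmt5, an arginine methyltransferase gene. Members were all genes of the deposited table whose symbol begins with a chemokine, chemokine receptor or atypical chemokine receptor stem followed by a number. This gave 42 of 14291 genes: 25 ligands, 12 signalling receptors and 5 atypical or related receptors (Ackr1, Ackr2, Ackr3, Ackr4 and Ccrl2). PolyA RNA was sequenced from 3 Prmt5 knockout libraries (Prmt5AKO) and 3 wild type libraries (Prmt5flox/flox, that is, floxed alleles), all labelled epididymal white adipose tissue. The labels give no Cre driver, cell type of deletion, strain, age or treatment, and do not say whether libraries of a genotype came from separate animals. P-values therefore rest on the spread of these 6 libraries alone, whose source may be technical.

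Chemokines are small secreted proteins that guide leukocytes by binding seven-helix receptors coupled to inhibitory G proteins. Most receptors bind several ligands and most inflammatory ligands bind several receptors, whereas atypical receptors take up ligand without that signalling. In fat, chemokines made by adipocytes, stromal cells and macrophages are known for drawing in monocytes, T cells and eosinophils.

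Total counts ran from 17489530 to 24454163 in the knockout libraries and from 20746401 to 26403882 in wild type. Prmt5 stood at 14.8, 22.4 and 28.5 counts per 1000000 (CPM) in knockout replicates 1 to 3, against 37.5, 59.9 and 40.8 CPM in wild type replicates 1 to 3, with no overlap. Libraries also differed apart from genotype, as a first principal component with 61.8% of the variance placed knockout replicate 1 with wild type replicates 1 and 3. Epididymal fat is a male depot, yet Xist, the transcript of the inactive X chromosome, stood at 1040, 45.6 and 47.2 CPM in the knockout libraries and at 958, 106 and 510 CPM in wild type. High Xist goes against the labelled depot, and Y-linked genes were not analysed here. The adipocyte marker Adipoq averaged 4610 CPM in the knockout and 3930 CPM in wild type. The deposited fold changes equal those of an edgeR fit with a term that parts replicate 1 of both genotypes from replicates 2 and 3. The deposited table's name holds the word batch, though no label says what the grouping was. Values of that fit, called the batch-term fit, are given beside the genotype-only ones for many of the members, and a gene is called at an adjusted p under 0.05.

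Levels per length are given in RPKM, reads per kilobase of exon and 1000000 library reads, with edgeR's TMM scaling, and error is the SD over 3 libraries. The most abundant member was Ccl6, a CC chemokine of mouse macrophages, which stood at 156, 353 and 531 RPKM in knockout libraries and at 120, 504 and 426 RPKM in wild type. Replicate 1 was the lowest library of both genotypes, and the genotypes overlapped. By mean RPKM over all 6 libraries it was followed by Ccl8 (96.2), Ccl9 (75.4), Ccl11 (67.9), Ccl5 (60.6), Cxcl12 (42.1), Cxcl9 (32.2) and Ackr3 (26.5). Every pair of neighbours in this order overlapped in its range over libraries. The most abundant signalling receptor, the monocyte receptor Ccr2, averaged 12.1 RPKM and the least abundant member, the dendritic cell receptor Xcr1, averaged 0.339 RPKM. The median member stood at 3.76 RPKM, against 6.60 RPKM over all genes. In bulk tissue, fewer cells of a type and less RNA per cell cannot be told apart.

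The genotype-only fit called 0 members, as it called 0 of all 14291 genes, or 0% (quasi-likelihood test of edgeR, Benjamini-Hochberg adjusted). DESeq2 on the same design called 3 members higher (Cxcl9, Ccl19 and Ccl5) and 1 lower (Ccr3), against 1.2% and 0.7% of all genes. Limma-voom called 0. In that edgeR fit 8 members with an unadjusted p under 0.05 were higher and 6 lower, or 19% and 14.3% of the 42, against 5.26% and 3.37% of all genes. The batch-term fit called 2 members, Cxcl9 higher and Ccr3 lower, where it called 0.504% of all genes. At an unadjusted p under 0.05 that fit had 9 members higher and 7 lower, against 12.1% and 12.4% of all genes. Once it also held offsets for exonic length and GC, 3 members were called higher (Cxcl9, Ccl5 and Ccl8) and 2 lower (Ccr3 and Ccl24), against 1.21% and 0.889% of all genes. In 8 members every knockout library was above every wild type library (8.32% of all genes): Cxcl9, Cxcl10, Cxcr3, Ccl5, Xcl1, Ccl19, Ccr10 and Ackr1. In 7 every knockout library was below (6.2% of all genes): Ccr3, Ccr1, Ccl11, Cxcl13, Ccl25, Ackr2 and Ackr4. Members went both ways, with 24 above 0 in the genotype-only fit (57.1%, against 49% of all genes). Their median log2 fold change was 0.17, against -0.02 over all genes, and it ran from -0.09 to 0.43 with a library left out. Because the deposited table holds only genes above a low level, these counts describe the members that passed it. Xcl1 reached that level (0.606 CPM in a library) in knockout libraries only, so it had to be among the higher members and adds nothing to their count.

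**Figure D1:**
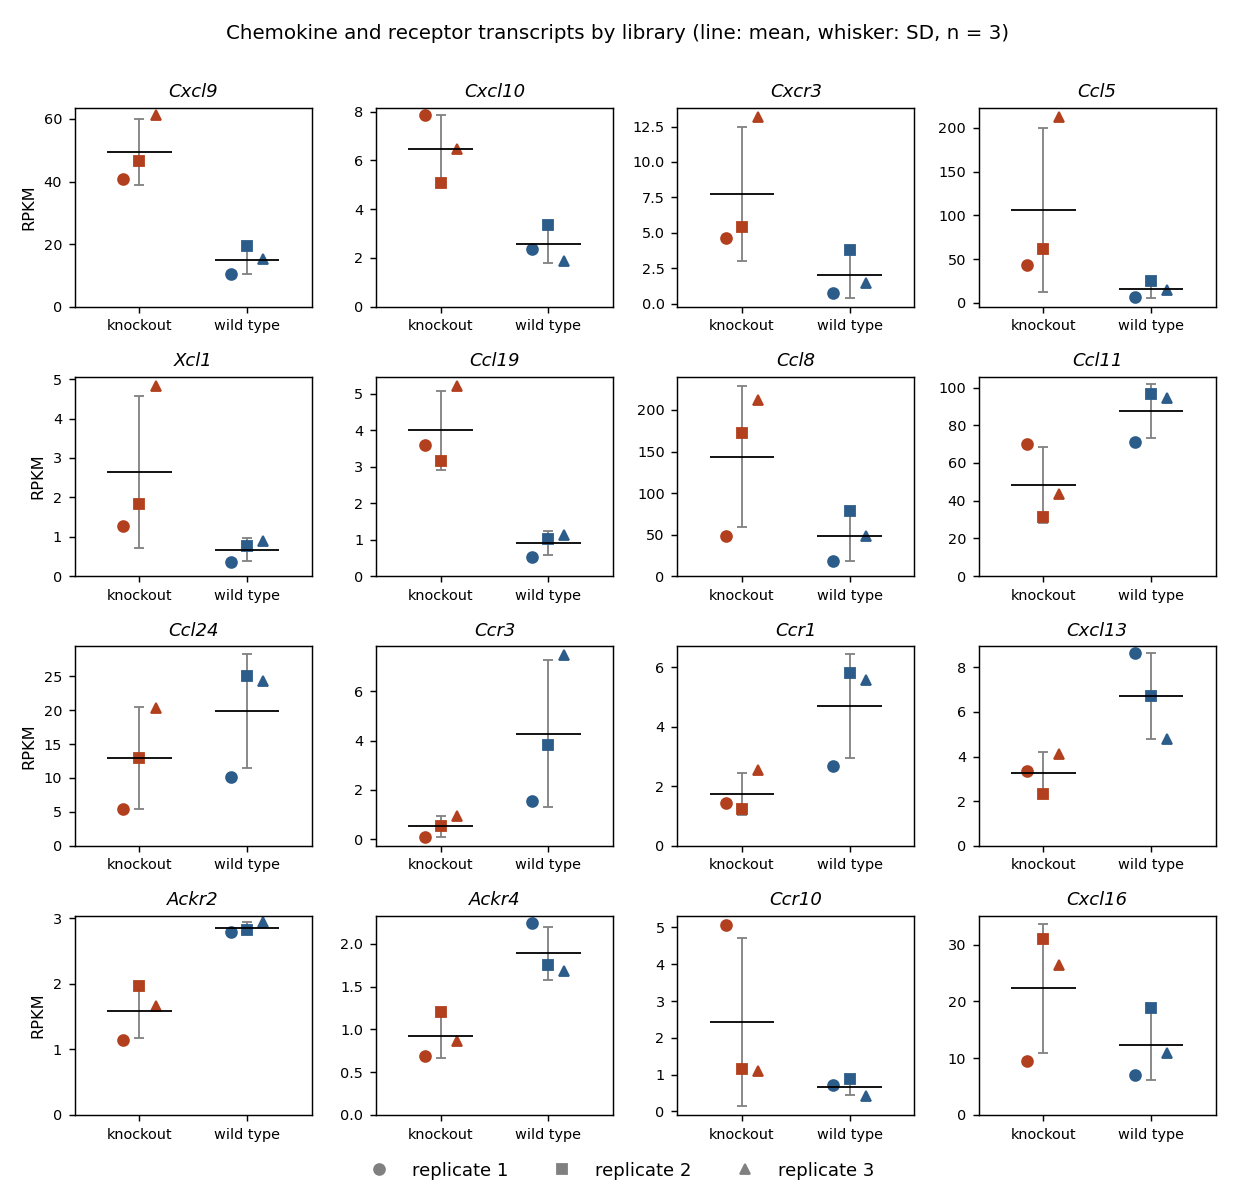
RPKM of the 16 members with an unadjusted p under 0.05 in either edgeR fit, 1 point per library, knockout left of wild type, with the mean (line) and SD (whisker, n = 3). Cxcl9 stood between 40.7 and 61.1 RPKM in knockout libraries and between 10.4 and 19.3 RPKM in wild type, whereas Ccr3 stayed under 1 RPKM in every knockout library.

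**Figure D2:**
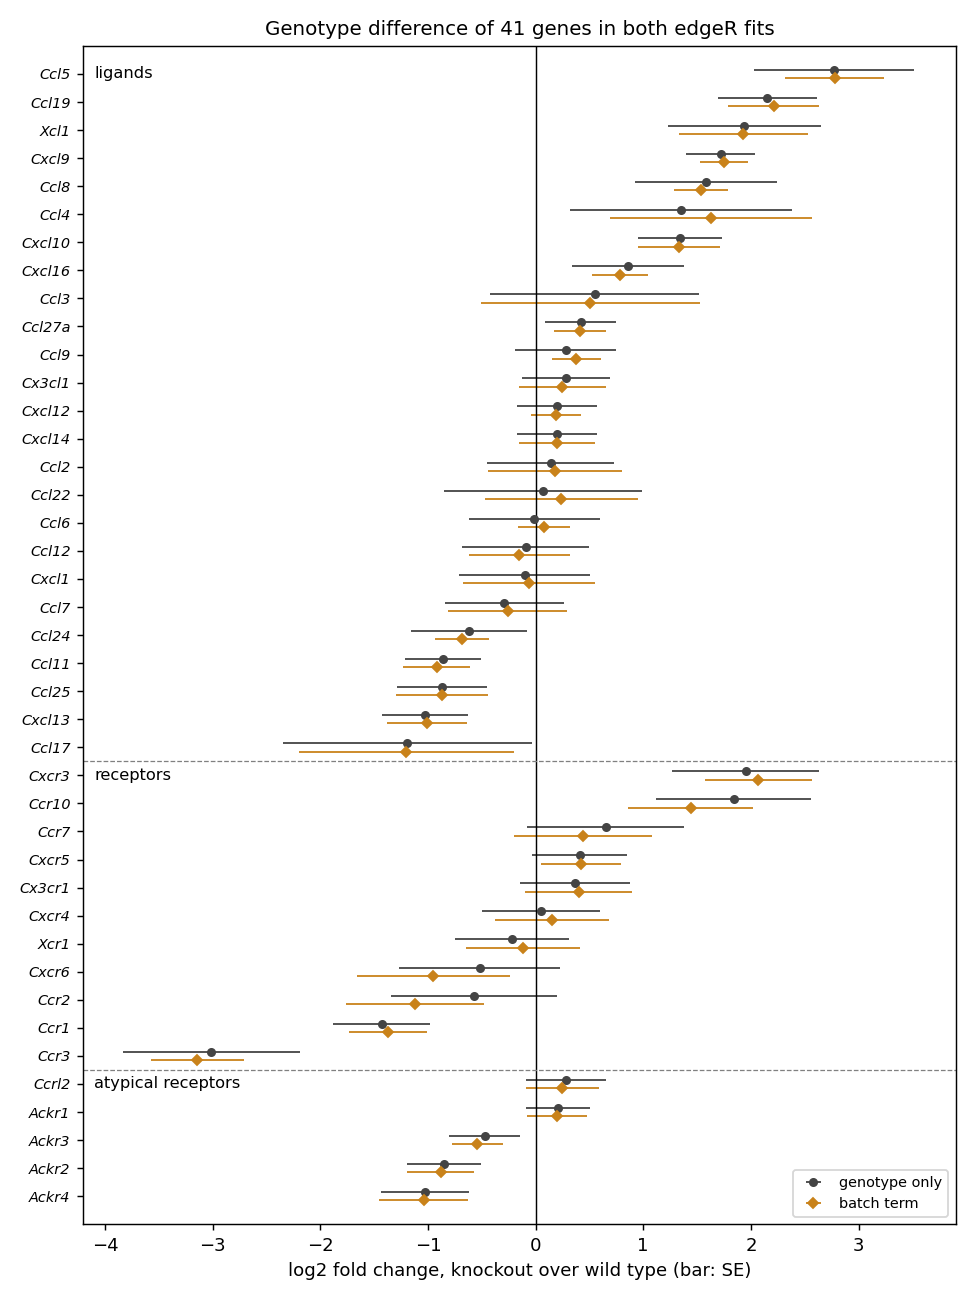
Log2 fold change (knockout over wild type, bar: SE) of 41 members in the genotype-only and batch-term edgeR fits, ordered by size within ligands, receptors and atypical receptors. Ccl5 is at the top of the ligands (2.77) and Ccr3 at the bottom of the receptors (-3.01), and most other members lie within 1 of 0 in both fits.

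The receptor gene Cxcr3 and its ligand genes Cxcl9 and Cxcl10 stood higher in every knockout library than in any wild type library. Cxcl9 and Cxcl10 encode chemokines that interferon-gamma induces, and CXCR3 is their receptor on activated T cells and natural killer cells. Both ligand genes lie on chromosome 5 of mm10, 18.6 kb apart, Cxcl9 at 92321331 to 92328079 and Cxcl10 at 92346639 to 92348889, both on the minus strand. The 250 bases before the start of each are shown because these neighbours were both higher in the knockout. They come from RefSeq for GRCm38.p6, read 5′ to 3′ on the minus strand, from chr5:92328080-92328329 and chr5:92348890-92349139, with capitals marking matches to 3 motifs searched on both strands.
Cxcl9: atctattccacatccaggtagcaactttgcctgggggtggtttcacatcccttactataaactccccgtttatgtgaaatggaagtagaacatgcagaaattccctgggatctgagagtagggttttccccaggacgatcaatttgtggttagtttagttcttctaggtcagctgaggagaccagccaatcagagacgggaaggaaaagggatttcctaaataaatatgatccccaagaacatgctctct
Cxcl10: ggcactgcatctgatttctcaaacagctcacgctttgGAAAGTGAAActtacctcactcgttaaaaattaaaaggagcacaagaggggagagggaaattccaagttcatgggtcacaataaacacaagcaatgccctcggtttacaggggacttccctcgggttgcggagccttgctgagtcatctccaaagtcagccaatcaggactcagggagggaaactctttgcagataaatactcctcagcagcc
The motifs were the interferon-stimulated response element (TTTC and TTTC, 2 bases apart), the gamma-activated site (TTC and GAA, 3 bases apart) and an NF-kB site (GGG and TTTCC, 2 bases apart), whose matches do not overlap in these windows. Cxcl10 held 1 match, to the interferon-stimulated response element, 213 to 204 bases before the start, and Cxcl9 held none of these letters. Sites that depart from these letters were not searched for, so a window without a match may still hold a site. Matches to the 3 motifs occurred in 2.98%, 7.02% and 1.41% of 32851 RefSeq promoter windows of this length, and in 3, 2 and 3 of the 31 members that had a window.

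Cxcl9 stood at 40.7, 46.4 and 61.1 RPKM in knockout replicates 1 to 3, against 10.4, 19.3 and 15.2 RPKM in wild type replicates 1 to 3. Every knockout library was above every wild type library. The mean was 49.4 ± 10.5 RPKM in the knockout and 15 ± 4.43 RPKM in wild type (SD, n = 3 each), a 3.3-fold difference. Cxcl9 rose in the batch-term fit (log2 fold change 1.75, SE 0.22, adjusted p = 0.0267, edgeR), and its genotype-only value was 1.72 (SE 0.32, adjusted p = 0.264, edgeR). The log2 difference was 1.95 within replicate 1 and 1.62 within replicates 2 and 3. The batch-term call was kept without wild type replicates 2 and 3 and lost without wild type replicate 1 (edgeR adjusted p = 0.0649) and without knockout replicates 1, 2 and 3 (0.0751, 0.202 and 0.133). The log2 fold change in those 6 fits ran from 1.62 to 1.88.

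Cxcl10 was less abundant, at 7.86, 5.05 and 6.47 RPKM in knockout libraries against 2.38, 3.36 and 1.89 RPKM in wild type, again with no overlap. Its log2 fold change of 1.34 (SE 0.39) did not pass over all genes (adjusted p = 0.418, edgeR genotype-only, and 0.129 with the batch term). Exons of Art3 lie opposite part of Cxcl10, and no source used here says whether counting kept strand, so reads in that overlap (132 bases, with 3.85% of the 50-base windows of Cxcl10 shared) cannot be told apart. The receptor gene Cxcr3, on the X chromosome, stood at 4.62, 5.38 and 13.2 RPKM in knockout libraries against 0.745, 3.75 and 1.48 RPKM in wild type. The lowest knockout library was only a little above wild type replicate 2, and knockout replicate 3 was the highest by far. The log2 fold change of Cxcr3 was 1.95 (SE 0.68, adjusted p = 0.506, edgeR genotype-only) and 2.07 with the batch term (SE 0.50, adjusted p = 0.104, edgeR), and 1.32 without knockout replicate 3.

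Ccl5, a ligand that T cells and natural killer cells secrete, was also higher in every knockout library than in any wild type library. Ccl5 (chromosome 11, 83525779 to 83530518) stood at 42.8, 61.3 and 213 RPKM in knockout libraries against 6.18, 25.1 and 15 RPKM in wild type. The mean was 6.85-fold higher in the knockout, with knockout replicate 3 far above the other knockout libraries. The log2 fold change was 2.77 (SE 0.74, adjusted p = 0.393, edgeR genotype-only), and 2.78 with the batch term (SE 0.46, adjusted p = 0.0546, edgeR), just above the threshold. Without knockout replicate 3 the genotype-only value was 1.75, and offsets for exonic length and GC content gave 2.17 with the batch term (adjusted p = 0.0394, edgeR). With the batch term Ccl5 passed without wild type replicate 2 (edgeR adjusted p = 0.04) or wild type replicate 3 (edgeR adjusted p = 0.0376).

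Xcl1, another ligand of T cells and natural killer cells, binds XCR1, a receptor of cross-presenting dendritic cells. It rested on 13, 20 and 49 reads in knockout libraries and on 4, 10 and 12 in wild type, and was 3.92-fold higher on average (log2 fold change 1.94, SE 0.71, adjusted p = 0.526, edgeR genotype-only). Because it passed the level of the deposited table in knockout libraries only, it had to be higher there, and these values are a description. A short annotated gene, Gm20743, lies opposite an exon of Xcl1. Its receptor gene Xcr1 stood at 0.351, 0.235 and 0.355 RPKM in knockout libraries against 0.179, 0.437 and 0.476 RPKM in wild type, with overlap. Dendritic cell markers went both ways, 4 of 6 lying above 0 (49% of all genes did, edgeR genotype-only). Their sums were 43.9 to 69.6 CPM in knockout libraries and 41.4 to 43.8 CPM in wild type. Ccl3 and Ccl4, other ligands of activated leukocytes, were scarce and scattered, with 22, 1 and 17 reads of Ccl3 in knockout libraries against 4, 19 and 11 in wild type. Ccl4 had 22, 15 and 56 reads in knockout libraries against 2, 38 and 5 in wild type. Neither separated the genotypes.

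Markers of T and natural killer cells were higher beside these genes. All 10 listed markers lay above 0 with a median log2 fold change of 1.71. With genotype only, 7 passed an unadjusted p of 0.05 and 0 were called (edgeR). Beside this and the later marker lists, 49% of all genes lay above 0, and 5.26% were higher at that p. Their summed level was 42.3 to 124 CPM in knockout libraries and 15.4 to 28.0 CPM in wild type. Knockout replicate 3 was the highest for the marker sum, as for Ccl5, Cxcr3 and Xcl1. The T cell receptor component Cd3e averaged 7.09 CPM in the knockout and 2.58 CPM in wild type, and the cytotoxic granule gene Nkg7 averaged 13.3 CPM in the knockout and 2.90 CPM in wild type. The natural killer receptor gene Ncr1 stood near 1 CPM in both genotypes, at 1.16 CPM in the knockout and 0.727 CPM in wild type. Macrophage markers, from cells that also make Cxcl9, lay above 0 for 5 of 10, with sums of 1486 to 2243 CPM in knockout libraries and 1238 to 1925 CPM in wild type. The part of cell number in the chemokine differences was not tested.

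**Figure D3:**
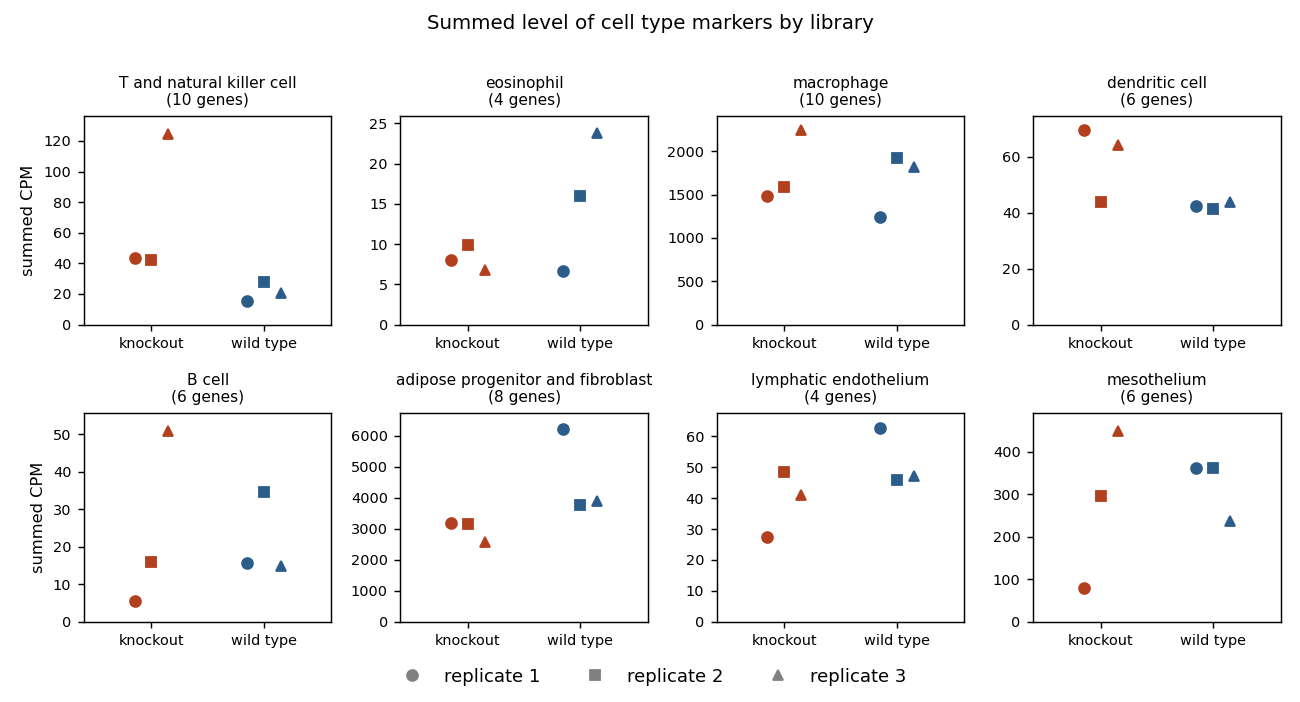
Summed CPM of cell type marker lists in each library, knockout left of wild type, 1 point per library and marker shape by replicate. T and natural killer cell markers were higher in every knockout library (lowest 42.3 CPM) than in any wild type library (highest 28.0 CPM), and progenitor and fibroblast markers were lower.

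The eotaxin receptor gene Ccr3 fell in the batch-term fit, while the eotaxin genes Ccl11 and Ccl24 had log2 fold changes below 0 that passed in neither that fit nor the genotype-only one. CCR3 is the main chemokine receptor of eosinophils, which in lean fat are part of the resident immune cells, and Ccl11 (eotaxin-1) and Ccl24 (eotaxin-2) encode its ligands. Ccr3 lies on chromosome 9, 124021971 to 124031689, plus strand. The 250 bases before its start are shown as those of the called receptor (RefSeq, GRCm38.p6, chr9:124021721-124021970, plus strand, capitals marking the match).
Ccr3: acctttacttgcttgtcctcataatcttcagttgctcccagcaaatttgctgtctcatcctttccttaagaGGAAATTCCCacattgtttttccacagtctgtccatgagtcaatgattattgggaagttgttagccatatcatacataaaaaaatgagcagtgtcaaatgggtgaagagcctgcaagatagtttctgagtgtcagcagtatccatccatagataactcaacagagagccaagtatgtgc
The match, 179 to 170 bases before the start, was to the NF-kB letters on the opposite strand.

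Ccr3 had 8, 38 and 62 reads in knockout replicates 1 to 3, against 115, 322 and 654 reads in wild type replicates 1 to 3. That is 0.119, 0.529 and 0.937 RPKM in knockout libraries against 1.56, 3.83 and 7.44 RPKM in wild type. The genotypes did not overlap, although values differed several-fold within each, and the mean was 8.09-fold higher in wild type. In the batch-term fit Ccr3 fell by 3.14 on the log2 scale (SE 0.43, adjusted p = 0.0321, edgeR), and its genotype-only value was -3.01 (SE 0.82, adjusted p = 0.393, edgeR). Under the length and GC offsets the log2 fold change was -2.0 with genotype only and -2.31 with the batch term (adjusted p = 0.0475, edgeR). The batch-term call was kept without wild type replicates 2 and 3 and lost without wild type replicate 1 (edgeR adjusted p = 0.0607) and without knockout replicates 1, 2 and 3 (0.0675, 0.295 and 0.0683). Its log2 fold change in those fits lay between -3.51 and -2.87.

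Ccl11 (chromosome 11, 82057832 to 82062955) was far more abundant per length than its receptor. It stood at 70.3, 31.1 and 43.4 RPKM in knockout libraries against 70.9, 96.8 and 94.6 RPKM in wild type. The highest knockout library, replicate 1, was just below the lowest wild type library, also replicate 1. The log2 fold change was -0.86 (SE 0.35, adjusted p = 0.567, edgeR genotype-only) and -0.92 with the batch term (adjusted p = 0.159, edgeR), close to 0 within replicate 1 (-0.01) and -1.39 within replicates 2 and 3. Ccl24, made by macrophages, stood at 5.34, 13 and 20.4 RPKM in knockout libraries against 10.2, 25 and 24.4 RPKM in wild type. Replicate 1 was again the lowest library of each genotype, so the genotypes overlapped. Knockout was lower within replicate 1, and within replicates 2 and 3 both knockout libraries lay below both wild type libraries. Ccl24 had a log2 fold change of -0.62 with genotype only (SE 0.54, adjusted p = 0.651, edgeR) and -0.68 with the batch term (SE 0.25, adjusted p = 0.172, edgeR). It passed in the batch-term fit with length and GC offsets (-1.0, adjusted p = 0.0495, edgeR).

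Eosinophil markers other than Ccr3 were uneven. Of 4 listed markers analysed, 1 lay above 0 and 2 had an unadjusted p under 0.05, both lower, with 0 called (edgeR genotype-only). Over all genes 3.37% were lower at that p. The sialic acid-binding receptor Siglecf stood at 0.684, 0.957 and 1.09 CPM in knockout libraries against 1.2, 6.35 and 8.71 CPM in wild type, and the IL-5 receptor gene Il5ra at 0.342, 0.182 and 0.396 CPM in knockout libraries against 0.666, 1.56 and 3.24 CPM in wild type. Both, like Ccr3, were highest in wild type replicate 3. Il5ra reached the level of the deposited table (0.606 CPM in a library) in wild type libraries only. It therefore had to be lower in the knockout and adds nothing to the count of lower markers. The granule protein gene Prg2 averaged 1.57 CPM in the knockout and 1.29 CPM in wild type, and Ear2 averaged 5.43 CPM in the knockout and 6.95 CPM in wild type. Progenitor and fibroblast markers, from cells that make Ccl11, lay below 0 for 7 of 8, with sums of 2587 to 3180 CPM in knockout libraries and 3771 to 6228 CPM in wild type. Their part in the eotaxin differences was not tested.

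Among the ligands, Ccl8 and Ccl19 were also higher in the knockout, and both fell short of a call in either edgeR fit. Ccl8 encodes a chemokine of tissue macrophages that in mice acts on CCR8. It stood at 48.6, 172 and 212 RPKM in knockout libraries against 18.2, 78.5 and 48.1 RPKM in wild type. The overlap came from knockout replicate 1, which lay between the wild type libraries. Knockout was higher within replicate 1, and within replicates 2 and 3 the genotypes did not overlap. The log2 fold change was 1.58 with genotype only (SE 0.66, adjusted p = 0.572, edgeR) and 1.54 with the batch term (SE 0.25, adjusted p = 0.05004, edgeR). With the batch term it passed without wild type replicate 2 or 3 (adjusted p = 0.0444 and 0.0219, edgeR). With length and GC offsets and the batch term, the value was 1.24 (adjusted p = 0.0256, edgeR).

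Ccl19, a ligand of the lymphoid homing receptor CCR7, stood at 3.6, 3.16 and 5.22 RPKM in knockout libraries against 0.524, 1.03 and 1.14 RPKM in wild type. The genotypes were well apart, at a 4.46-fold difference of means and a log2 fold change of 2.15 (SE 0.46, adjusted p = 0.349, edgeR genotype-only), or 2.21 with the batch term (adjusted p = 0.0727, edgeR). The deposited exons of Ccl19 include a second copy on an unplaced scaffold. Of the 50-base windows of its transcript, 59.1% occur in other annotated genes, among them Gm2564, Gm12407, Ccl19-ps1 and Ccl19-ps3. The Ccl19 values are therefore uncertain. The receptor gene Ccr7 stood at 0.322, 0.738 and 2.18 RPKM in knockout libraries against 0.539, 1.01 and 0.509 RPKM in wild type, with overlap.

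Ccr1, a receptor of monocytes and neutrophils, was lower in every knockout library, at 1.45, 1.22 and 2.53 RPKM against 2.68, 5.82 and 5.57 RPKM in wild type. Its log2 fold change was -1.43 (SE 0.45, adjusted p = 0.453, edgeR genotype-only), -1.37 with the batch term (adjusted p = 0.115, edgeR) and -0.74 with length and GC offsets. Of its ligands, Ccl9 stood at 54, 82.9 and 111 RPKM in knockout libraries against 29.8, 88.8 and 86 RPKM in wild type, and Ccl6 was described above. Neither ligand separated the genotypes. Neutrophil marker sums were 10.4 to 30.2 CPM in knockout libraries and 9.85 to 62.3 CPM in wild type. Macrophage markers went both ways, 5 of 10 lying above 0. The lysosomal marker Cd68 averaged 85.1 CPM in the knockout and 43.2 CPM in wild type (log2 fold change 0.98, 0 called), and the scavenger receptor gene Cd163 averaged 50.8 CPM in the knockout and 139 CPM in wild type. Cd163 was called lower in the batch-term fit (log2 fold change -1.47, adjusted p = 0.0321, edgeR), a call kept in 2 of the 6 fits that left out a library, where the adjusted p reached 0.295. The part of any cell type in the Ccr1 values was not tested.

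The CCL2 and CCR2 axis, which recruits monocytes, did not separate the genotypes. Ccl2 stood at 10.5, 6.05 and 4.42 RPKM in knockout libraries against 2.53, 11 and 5.54 RPKM in wild type (log2 fold change 0.14, SE 0.59). Ccl7 and Ccl12, further ligands of CCR2, had log2 fold changes of -0.29 (SE 0.55) and -0.09 (SE 0.59). Ccr2 itself varied more between libraries than between genotypes, at 21.5, 3.91 and 3.69 RPKM in knockout libraries against 14.8, 5.72 and 22.6 RPKM in wild type. Its log2 fold change was -0.57 with genotype only (SE 0.77) and -1.12 with the batch term (SE 0.64, adjusted p = 0.291, edgeR). It was 0.54 within replicate 1 and -1.92 within replicates 2 and 3. Under the length and GC offsets the value of Ccr2 was only -0.15 with genotype only and -0.25 with the batch term. Its 3 high libraries were knockout replicate 1 and wild type replicates 1 and 3, the same 3 that the first principal component and high Xist set apart. Cxcr6, a receptor of T cells, stood at 2.04, 0.602 and 0.209 RPKM in knockout libraries against 1.13, 1.48 and 1.47 RPKM in wild type, with overlap. The log2 fold change of Cxcr6 was -0.52 with genotype only (SE 0.75) and -0.95 with the batch term (SE 0.71). It was 0.73 within replicate 1 and -1.88 within replicates 2 and 3. The ligand gene Cxcl16 was lowest in knockout replicate 1 among knockout libraries.

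Cxcl16 stood at 9.46, 31 and 26.4 RPKM in knockout libraries against 6.96, 18.9 and 11 RPKM in wild type, higher in the knockout within replicate 1 and without overlap within replicates 2 and 3. Its log2 fold change was 0.86 with genotype only (SE 0.52, adjusted p = 0.605, edgeR) and 0.78 with the batch term (SE 0.26, adjusted p = 0.159, edgeR). The exons of Zmynd15 lie opposite Cxcl16 over up to 552 bases, and 20.0% of its 50-base windows are shared, so its counts are uncertain. Ccr10, a skin homing receptor of T cells, had 179, 43 and 38 reads in knockout libraries against 28, 39 and 20 in wild type, and its log2 fold change of 1.84 (SE 0.72, adjusted p = 0.545, edgeR) was 1.44 with the batch term and 0.71 without knockout replicate 1, its highest library. Its ligand gene Ccl27a (log2 fold change 0.42, SE 0.33) shares 69.2% of its windows with near-identical genes and is likewise uncertain.

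Genes of lymphoid organisation and dendritic cell traffic were scattered. Cxcl13, the B cell attractant of fat-associated lymphoid clusters, was lower in every knockout library, at 3.36, 2.31 and 4.13 RPKM against 8.63, 6.7 and 4.77 RPKM in wild type. The log2 fold change was -1.03 (SE 0.40, adjusted p = 0.541, edgeR genotype-only) and -1.01 with the batch term. Its receptor gene Cxcr5 stood at 1.72, 2.18 and 3.03 RPKM in knockout libraries against 1.2, 2.61 and 1.41 RPKM in wild type, with overlap. B cell marker sums were 5.67 to 50.8 CPM in knockout libraries and 14.8 to 34.7 CPM in wild type, and mesothelial marker sums were 80 to 449 CPM in knockout libraries and 238 to 363 CPM in wild type. Madcam1, a gene of lymph node vessels, stood at 0, 2.32 and 8.06 CPM in knockout libraries and at 0.0444, 0.779 and 2.79 CPM in wild type, and the part of lymphoid tissue was not tested. Ccl17 and Ccl22, ligands of CCR4 made by dendritic cells, were highest in the same pair of libraries. Ccl22 had 224 reads in knockout replicate 3 and 352 in wild type replicate 2, against 33 to 92 in the other libraries, and Ccl17 had 47 and 125 reads in those, against 3 to 19. Ccr7 was also highest in these libraries, so the 3 genes varied by library rather than by genotype.

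Of the 5 atypical and related receptor genes, 3 had log2 fold changes below 0 and 2 above (40%, against 49% of all genes above 0). In either fit 0 passed. Ackr2, which takes up inflammatory CC chemokines, stood at 1.14, 1.97 and 1.66 RPKM in knockout libraries against 2.8, 2.83 and 2.95 RPKM in wild type. Ackr4, which takes up CCL19, CCL21 and CCL25, stood at 0.695, 1.21 and 0.868 RPKM in knockout libraries against 2.25, 1.75 and 1.68 RPKM in wild type. In both, the genotypes did not overlap and the wild type libraries lay close together. Log2 fold changes were -0.85 for Ackr2 (SE 0.34, adjusted p = 0.564) and -1.03 for Ackr4 (SE 0.41, adjusted p = 0.555, edgeR genotype-only), and -0.88 and -1.04 with the batch term. Ackr3, which takes up CXCL12, stood at 13.4, 23 and 30.3 RPKM in knockout libraries against 28.2, 30.2 and 34.1 RPKM in wild type (log2 fold change -0.47, SE 0.33). Its genotypes overlapped, knockout replicate 3 lying above wild type replicates 1 and 2. Ackr1, the erythroid and venular chemokine receptor, and Ccrl2, which binds chemerin, had log2 fold changes of 0.21 (SE 0.30) and 0.28 (SE 0.37). An exon of Acad11 lies opposite Ackr4, and an exon of Cadm3 overlaps Ackr1 on its own strand. Lymphatic endothelial markers, from cells that express Ackr2 and Ackr4, lay below 0 for all 4 analysed, with sums of 27.3 to 48.5 CPM in knockout libraries and 45.9 to 62.6 CPM in wild type, and their part was not tested.

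Homeostatic stromal ligands varied within genotypes. Cxcl12, the stromal ligand of CXCR4 that retains leukocytes and progenitors, stood at 61.1, 44.8 and 29 RPKM in knockout libraries against 52.7, 29.2 and 35.9 RPKM in wild type (log2 fold change 0.20, SE 0.37). Cxcr4 stood at 3.99, 1.98 and 4.63 RPKM in knockout libraries against 1.66, 2.75 and 5.85 RPKM in wild type (0.05, SE 0.55). Neither ligand nor receptor separated the genotypes. Cxcl14, abundant in fibroblasts and brown fat, had a log2 fold change of 0.20 (SE 0.37), and the membrane-bound Cx3cl1 and its receptor gene Cx3cr1 had 0.28 (SE 0.41) and 0.37 (SE 0.51). Ccl25, a gut homing ligand, was lower in every knockout library, at 1.3, 1.43 and 0.854 RPKM against 1.88, 2.51 and 2.19 RPKM in wild type (-0.87, SE 0.42, adjusted p = 0.588, edgeR genotype-only). Exons of Elavl1 lie opposite part of Ccl25. The neutrophil attractant Cxcl1 rested on 14 to 50 reads in any library (-0.10, SE 0.61).

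Of 44 ligand and receptor pairs, both genes were analysed in 29, which share 19 ligands and 15 receptors and so are not independent. Both genes of a pair lay above 0 in 8 pairs, both below in 8, and on opposite sides in 13. In 7 pairs both had an unadjusted p under 0.05 (edgeR genotype-only). Cxcr3 with Cxcl9 and Cxcr3 with Cxcl10 were both higher, and Ccr3 with Ccl11 was lower. The other 4 were opposite, Ccl5 being higher and its receptor genes Ccr1, Ccr3 and Ackr2 lower, and Ccl19 higher and Ackr4 lower.

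**Figure D4:**
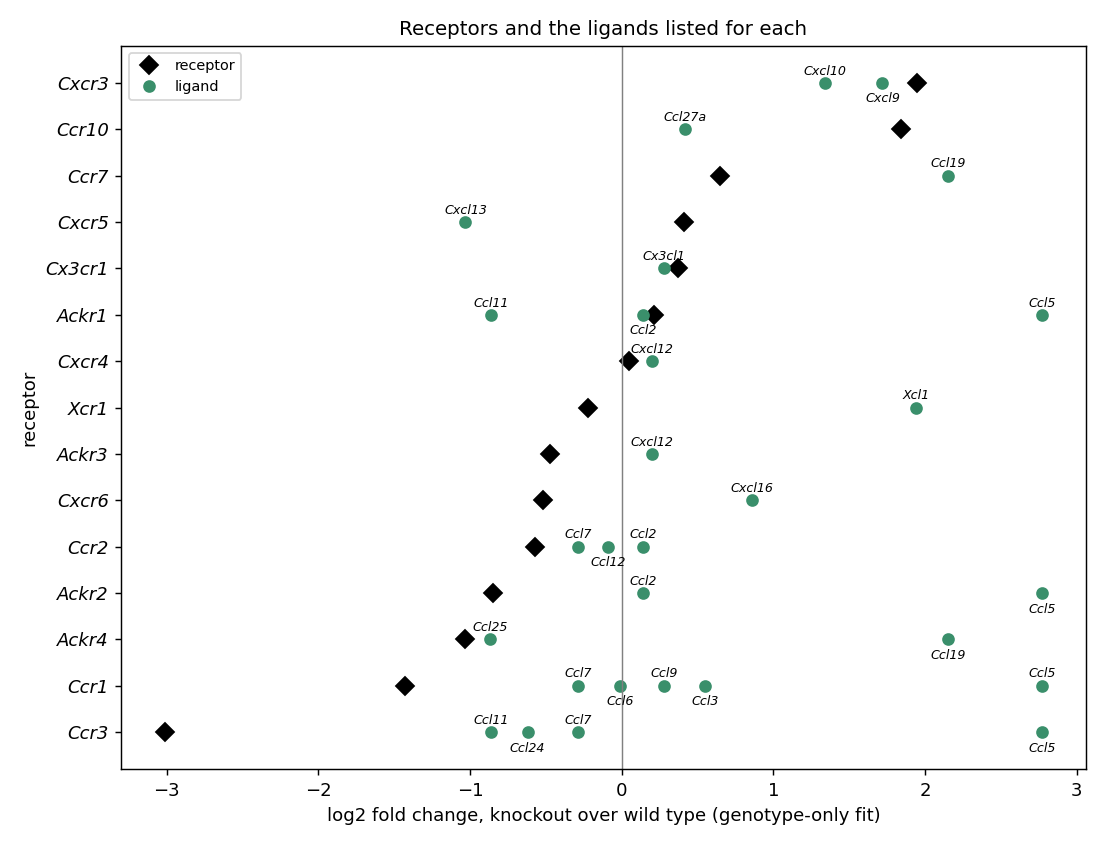
Log2 fold change (knockout over wild type, genotype-only edgeR fit) of each receptor gene (diamond) and of the ligand genes listed for it (circles), receptors ordered from the highest to the lowest. Cxcr3 (1.95) and its ligands lie right of 0, and Ccr3 (-3.01) and its eotaxin ligands lie left of it, whereas Ccl5 (2.77) lies opposite to Ccr1, Ccr3 and Ackr2.

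Members cluster on the chromosomes, with 13 on chromosome 11 and 11 on chromosome 9, and neighbours shared a direction in some places and not in others. Cxcl9 and Cxcl10 were both higher, as described above. Ccl11 and Ccl8 lie 52.2 kb apart on chromosome 11 with Ccl12 between them, and their log2 fold changes were -0.86, 1.58 and, for Ccl12, -0.09. Further along, Ccl5 (2.77) lies 42.4 kb from Ccl9 (0.28). In the receptor cluster of chromosome 9, Ccr1 and Ccr3 lie 53.3 kb apart and were both lower, and Ccr2 follows Ccr3 at 70.5 kb (-0.57).

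Other genes of the pathway are given by list, to be read beside the 49% of all genes that lay above 0 (edgeR genotype-only). Of 14 G protein, receptor kinase and arrestin genes 11 lay above 0 (median log2 fold change 0.37), with 0 called and 1 lower at an unadjusted p under 0.05, the inhibitory G protein gene Gnai1 (133 CPM in the knockout, 307 CPM in wild type). Of 22 signalling genes below the receptors 18 lay above 0 (median 0.36), with 0 called and 2 higher at that level, the kinase gene Ptk2b (114 CPM in the knockout, 63.2 CPM in wild type) and Pik3r5, a subunit of the G protein-activated PI3-kinase (20.7 CPM in the knockout, 12.2 CPM in wild type). Both medians lie above that of all genes (-0.02). Of 13 other chemoattractant and receptor genes 7 lay above 0 (median 0.27), with 1 higher at an unadjusted p under 0.05. This was Rarres2, which encodes the adipokine chemerin, at 228, 374 and 315 CPM in knockout libraries against 122, 118 and 118 CPM in wild type (log2 fold change 1.36, adjusted p = 0.337 with genotype only and 0.0522 with the batch term, edgeR). Its receptor gene Cmklr1 stood at 126 CPM in the knockout and 156 CPM in wild type. Of 12 NF-kB and interferon transcription factor genes 8 lay above 0 (median 0.18), and Irf8 was higher at an unadjusted p under 0.05 (54.3 CPM in the knockout, 24.8 CPM in wild type). Of 8 chemokine processing and binding genes 3 lay above 0 (median -0.17). The protease gene Dpp4, whose product trims CXCL9, CXCL10, CXCL12 and CCL11, averaged 16.6 CPM in the knockout and 55.4 CPM in wild type, and the heparan sulfate carrier gene Sdc1 averaged 64.4 CPM in the knockout and 32.6 CPM in wild type (unadjusted p under 0.05 in edgeR for both, 0 called). Dpp4 is also among the progenitor and fibroblast markers above.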

How the data were processed

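RNA from 3 knockout and 3 wild type libraries was polyA-selected and sequenced on an Illumina HiSeq, per the labels' protocols. TopHat2, HTSeq 0.6.1 and mm10 appear in the submitters' processing notes, and no source used here gives the annotation, strand setting or filters. The authors deposited 1 table with raw counts per gene, and per the file headers also log2 RPKM, log2 fold changes and p-values. It holds no gene whose third-highest library lies under 0.606 CPM.

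Counts were tested with edgeR 4.0.16 (R 4.3.3; TMM factors, quasi-likelihood test, Benjamini-Hochberg adjustment over all 14291 genes, threshold 0.05) on genotype alone. RPKM and CPM used TMM-scaled totals. A second fit added a term for replicate 1 against replicates 2 and 3, whose log2 fold changes match the authors' deposited ones within 8.33e-15. Alternatives used DESeq2 1.42.0, limma-voom 3.58.1, other scaling and filters, a replicate block, offsets for exonic length and GC content (GC known for 96.5% of genes), and libraries left out. The edgeR script was tested on simulated data. The biological coefficient of variation was 0.435, and 0.32 with the batch term.

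Members, lists and pairs were chosen with earlier results of these data known. The text names members with an unadjusted p under 0.05 in either edgeR fit, the 8 most abundant and those of listed pairs. Of the list genes, it names some at that p or leading their list. Others at that p were left out, such as Itgax and Flt3 (dendritic cell list, higher) and Ms4a1 (B cell list, lower). Adipoq, Ncr1, Prg2, Cmklr1 and Madcam1 were named after their values were seen. Of the 42 members, 1 is counted but otherwise not reported here. RefSeq windows of GRCm38.p6 matched 31 of the 42 members.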

Additional observations from a re-analysis of the deposited data

How the results depend on the processing

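The 6 libraries, their within-genotype spread and the low counts of several receptor genes limit what can be called, and 16 of the 42 members had an unadjusted p under 0.05 in either edgeR fit. Of those 16, 0 reversed direction under any of 22 alternatives, and of 901 member values 826 kept their direction. The 16 were picked by their p in the same 6 libraries that the alternatives refit in whole or in part. Their kept direction was therefore nearly fixed in advance, and no conclusion is drawn from it. All alternatives were marked as planned, though members, lists and pairs were chosen with earlier results of these data known. The grouping of the batch term is given by no label and was matched to the deposited fold changes.

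The number of genes called, 0 with genotype only, was 1 with RLE size factors, 271 with DESeq2, 57 with a replicate block, 72 with the batch term, 50 in replicates 2 and 3 alone, 7 with length and GC offsets, 300 with these offsets and the batch term, and 3 at an adjusted p under 0.1. It was 0 to 42 with a library left out (42 without knockout replicate 1) and 0 to 205 with the batch term as well (0 without knockout replicate 2, 205 without wild type replicate 3). Chemokine genes called, 0 with genotype only, numbered 4 with DESeq2, 2 with the replicate block (Cxcl9 and Ccr3), 2 with the batch term, 1 in replicates 2 and 3 alone (Ccr3) and 5 with offsets and the batch term. With the batch term and a library left out they numbered 0 to 4: 4 without wild type replicate 2 or 3 and 0 without any of the others. The 14 members at an unadjusted p under 0.05 became 7 to 15 with a library left out, 7 without wild type replicate 1 or 3 and 9 without knockout replicate 3. The median log2 fold change of the members ran from -0.09 (without wild type replicate 1) to 0.43 (without wild type replicate 2). Prmt5 passed with offsets and the batch term (-1.27, adjusted p = 0.0182, edgeR) and with the batch term without wild type replicate 3 (-1.30, adjusted p = 0.0236), within -1.31 to -0.84 over all libraries left out.

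Equal replicate numbers matched the samples only in part. Deviations from the genotype mean correlated at 0.638, 0.533 and -0.102 for numbers 1, 2 and 3. Knockout replicates 1 and 2 each correlated best with the wild type replicate of their own number. Knockout replicate 3 correlated best with wild type replicate 2 (0.44). Log2 fold changes that reversed sign were Ccl6 0.08 with the batch term, Ccl6 0.06 and Cxcl1 0.11 with the replicate block, and Ccl3 -0.05, Ccl6 0.07 and Cxcl1 0.14 with limma-voom. In replicates 2 and 3 alone they were Ccl2 -0.68, Ccl22 -0.05, Ccl3 -0.41 and Cxcr4 -0.40. With offsets they were Ackr1 -0.13, Ccl22 -0.08, Ccl27a -0.09, Ccl6 0.12, Cxcl14 -0.07 and Xcr1 0.36, and with the batch term added Ackr1 -0.14, Ccl27a -0.10, Ccl6 0.16, Cxcl14 -0.11 and Xcr1 0.51. With a library left out, with or without the batch term, values that reversed ran from -0.49 to 0.46 for Ccl12, -3.26 to 0.37 for Ccl17, -0.68 to 0.79 for Ccl2, -0.73 to 1.84 for Ccl22, -0.41 to 1.34 for Ccl3, -0.46 to 0.35 for Ccl6, -0.75 to 0.29 for Ccl7, -0.08 to 0.57 for Ccl9, -0.37 to 1.08 for Ccr7, -0.05 to 0.66 for Cx3cl1, -0.44 to 0.71 for Cxcl1, -0.08 to 0.47 for Cxcl12, -0.09 to 0.65 for Cxcl14, -0.40 to 0.66 for Cxcr4 and -0.65 to 0.20 for Xcr1. The cause was not tested.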
